A study of Mus musculus with 6 samples.

Results

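The genes described here encode the corepressors and cofactors through which the transcription factor ZEB1 acts. They were taken by symbol as a list of 9 (Ctbp1, Ctbp2, Hdac1, Hdac2, Kdm1a, Rcor1, Smarca4, Sirt1 and Ep300), and all 9 were found among the 24214 RefSeq features counted in each sample. The list was taken by gene name, without a threshold on any value. RNA sequencing was done on an epithelial mouse lung adenocarcinoma line, labelled as C57BL/6 KP lung cancer cells, after transfection with an empty vector (393P_vector) or with a ZEB1 expression vector (393P_ZEB1), with 3 samples of each. The paper's general methods describe drug selection of stable transfectants, without naming the drug used for these lines. All samples were grown in RPMI-1640 with serum, and other differences between the transfectants cannot be told apart from an effect of ZEB1, since the sources used here do not say how many clones or transfections each group stands for. The labels do not say whether the 3 samples of a line came from separate cultures, and p-values therefore measure only the spread between these samples.

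ZEB1 binds E-box sequences of the CACCTG type through zinc fingers and is best known for silencing epithelial genes such as Cdh1 during the epithelial-to-mesenchymal transition (EMT). It does so by bringing enzymes to chromatin. The CtBP proteins bind ZEB1 directly and act as a scaffold for histone deacetylases and for the LSD1-CoREST complex, which removes methyl groups from histone H3, while SIRT1 and the chromatin remodeler BRG1 (Smarca4) have also been described as partners. The acetyltransferase p300 (Ep300) is the counterpart, since it adds acetyl groups and is linked with activation by ZEB1.

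Of the 9 genes, Hdac1 rose and Ep300 fell in 393P_ZEB1 cells by edgeR's quasi-likelihood test at an adjusted p below 0.05, and the other 7 did not pass. The mean level of Hdac1 was 60.8% higher and that of Ep300 fell by 32.6%. The median log2 fold change of the 9 genes was -0.03, against -0.02 for all 13892 genes tested. The calls made up 22.2% of the 9 genes, against 37.6% of all genes tested, of which 18.3% rose and 19.3% fell. The samples of the groups did not overlap for 2 of the 9 genes, against 52.8% of all genes tested, made up of 26.3% with 393P_ZEB1 above and 26.5% with 393P_ZEB1 below. The count of genes that fell was 2 without 393P_vector replicate 3, when Smarca4 also passed, and the count of genes that rose was 0 without any 1 of the 393P_ZEB1 replicates, when Hdac1 was lost. With 393P_vector replicate 3 left out, 26.2% of all genes rose and 26.8% fell. Because RNA was taken from whole cultures, fewer cells with a transcript and less of it per cell cannot be told apart.

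Sample-wide values bear on how these numbers are read. Total counts ranged from 54442450 to 79158012 per sample, and each of the 9 genes had at least 1129 counts in every sample, so that the counting error of a single value was at most 2.98%. 393P_vector replicate 3 stood apart from the other samples of its group. It differed by over 20% from the mean of replicates 1 and 2 for 4 of the 9 genes and for 49.9% of all genes tested. Zeb1 itself, including any transgene reads that align to it, was at 21.2, 22.0 and 21.4 CPM (counts scaled to a common library size) in 393P_vector samples and at 54.9, 48.9 and 51.3 CPM in 393P_ZEB1 samples. Of 6 epithelial markers (Cdh1, Epcam, Krt8, Krt18, Krt19 and Cldn4), 5 fell and Krt19 did not pass. The summed level of the 6 was between 4629 and 5286 CPM in 393P_vector samples and between 2746 and 3042 CPM in 393P_ZEB1 samples. Most of this sum came from keratins, with group means of 894 and 585 CPM for Krt8, 2264 and 1327 CPM for Krt18, and 1272 and 968 CPM for Krt19. The other markers fell much further, from 162 to 9.51 CPM for Cdh1, 122 to 1.31 CPM for Epcam and 270.1 to 0.798 CPM for Cldn4. The lung lineage markers Nkx2-1, Sftpc and Sftpb were below 0.05 CPM on average in both groups and Scgb1a1 had no counts, so these defining markers of lung epithelium were absent or nearly so, while Foxj1 fell from 2.79 to 0.186 CPM. The summed levels of 6 leukocyte, 4 endothelial and 5 fibroblast markers were at most 4.21, 2.46 and 3.15 CPM in any sample. Of the 9 tested among these, Kdr and Pdgfra fell, Pdgfrb rose and the others did not pass. The 4 Y-linked genes examined fell from a summed level of at least 99.6 CPM in 393P_vector samples to at most 0.71 CPM in 393P_ZEB1 samples, and the median log2 fold change of single chromosomes ran from -0.43 for chromosome 17 to 0.64 for chromosome 18 among the autosomes, beside -0.02 for all genes. The part of these differences in the results below was not tested, and the median log2 fold change of its own chromosome is given with each of the 9 genes and with each partner gene that rose or fell. All chromosome medians are from the fit with all samples.

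**Figure D1:**
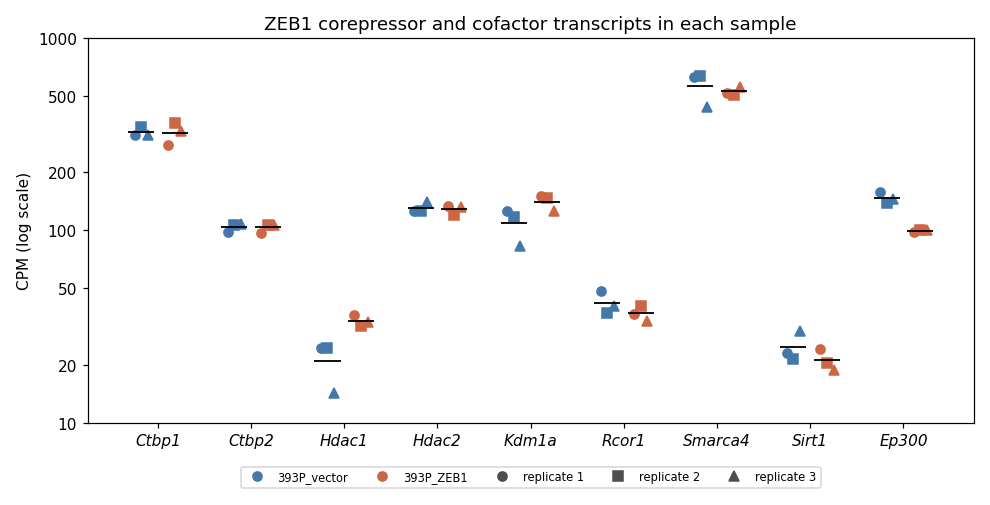
Level of each of the 9 transcripts in each sample, as CPM on a log scale; symbols are the 3 replicates of 393P_vector (blue) and 393P_ZEB1 (orange), and black bars are group means. The groups are separate for Hdac1 and Ep300 and overlap for the other 7 genes, and 393P_vector replicate 3 lies apart for Hdac1, Kdm1a, Smarca4 and Sirt1.

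Levels of different genes were compared per length, as RPKM (CPM divided by the exon length in kilobases). The length is that of all exons of a gene, so a gene with exons that are little used ranks lower. Ctbp1 was the most abundant of the 9 transcripts in both lines, at 131 ± 7.36 RPKM (SD, n = 3) in 393P_vector cells and 130.2 ± 16.9 RPKM (SD, n = 3) in 393P_ZEB1 cells. Smarca4, Hdac2, Kdm1a and Ctbp2 followed in that order in both lines, with mean levels from 89.0 down to 21.9 RPKM in 393P_vector cells and from 83.1 down to 21.7 RPKM in 393P_ZEB1 cells. Sirt1 was the least abundant in both, at 6.36 ± 1.15 RPKM (SD, n = 3) and 5.42 ± 0.707 RPKM (SD, n = 3). The order changed for Hdac1 and Ep300. In 393P_vector cells Ep300 (16.9 RPKM) was above Rcor1 (15.5 RPKM) and Hdac1 (10.7 RPKM), and in 393P_ZEB1 cells Hdac1 (17.2 RPKM) was above Rcor1 (13.7 RPKM) and Ep300 (11.4 RPKM). In 393P_ZEB1 cells the sample ranges of no 2 neighbours in the order overlapped. In 393P_vector cells the ranges of 3 pairs of neighbours did overlap, which were Smarca4 and Hdac2, Ep300 and Rcor1, and Hdac1 and Sirt1. Sirt1 was also the gene with the thinnest exon coverage, as 8 of its 10 exons had over 10 reads in 4 of the 6 samples, whereas every exon of Ctbp1, Hdac2, Kdm1a, Smarca4 and Ep300 did in every sample.

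The CtBP scaffold was first examined. Ctbp1, on chromosome 5 from 33247723 to 33275004, was at 313, 344 and 312 CPM in 393P_vector samples and at 277, 360.1 and 328 CPM in 393P_ZEB1 samples. The 393P_ZEB1 samples held both the lowest and the highest value, and the groups overlapped. The log2 fold change of Ctbp1 was -0.01 with a 95% interval from -0.29 to 0.28 (adjusted p = 0.979 from edgeR), beside a median of 0.07 for chromosome 5. Ctbp2, on chromosome 7 from 132987011 to 133123483, gives rise to the second CtBP protein and, from another promoter, to the synaptic protein RIBEYE. It was at 97.6, 107 and 108 CPM in 393P_vector samples and at 97.1, 107 and 107 CPM in 393P_ZEB1 samples, a near-complete overlap. The log2 fold change of Ctbp2 was -0.01 with a 95% interval from -0.24 to 0.22 (adjusted p = 0.955 from edgeR), beside a chromosome median of -0.01. The intervals span ratios of 393P_ZEB1 to 393P_vector from 0.816 to 1.22 for Ctbp1 and from 0.848 to 1.17 for Ctbp2, and the counts do not separate the products of Ctbp2. Within a sample, the ratio of counts per kilobase of Ctbp1 to Ctbp2 was 6.18, 6.2 and 5.56 in 393P_vector samples and 5.5, 6.49 and 5.93 in 393P_ZEB1 samples. The size of this ratio depends on the whole exon lengths used, 2472 bases for Ctbp1 and 4765 for Ctbp2. How much of the Ctbp2 length each of its products uses was not examined. The ratios overlapped between the groups (difference of the log2 ratio -0.0035, two-sided exact permutation p = 1.0, n = 3 in each group).

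The promoter windows that RefSeq gives on GRCm38.p6 for 8 of the 9 genes, from 250 bases before to 50 bases after a start site, were searched on both strands for the ZEB1-type E box, CACCTG or CAGGTG, which are each other's reverse complement. The motif was present in 0 of the 9 windows of these genes and in 20.2% of all 32851 windows. The general E box CANNTG, of which the ZEB1 type is a form, was present in 5 of the 9 windows and in 72.3% of all windows. The windows of Ctbp1, chosen as the scaffold gene, and of Ep300, chosen because its transcript fell, are shown with CANNTG in capitals. That of Ctbp1 lies on the minus strand at chr5:33274955-33275254 and holds CAGCTG at 168 and at 90 bases before the start, and that of Ep300 lies on the plus strand at chr15:81585964-81586263 and holds none.
Ctbp1: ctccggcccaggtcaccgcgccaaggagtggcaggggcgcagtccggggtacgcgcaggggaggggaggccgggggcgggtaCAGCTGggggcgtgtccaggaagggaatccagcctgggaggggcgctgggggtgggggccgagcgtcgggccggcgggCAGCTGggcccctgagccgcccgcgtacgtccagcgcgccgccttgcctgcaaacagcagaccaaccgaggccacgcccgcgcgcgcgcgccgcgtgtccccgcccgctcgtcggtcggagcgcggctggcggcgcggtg
Ep300: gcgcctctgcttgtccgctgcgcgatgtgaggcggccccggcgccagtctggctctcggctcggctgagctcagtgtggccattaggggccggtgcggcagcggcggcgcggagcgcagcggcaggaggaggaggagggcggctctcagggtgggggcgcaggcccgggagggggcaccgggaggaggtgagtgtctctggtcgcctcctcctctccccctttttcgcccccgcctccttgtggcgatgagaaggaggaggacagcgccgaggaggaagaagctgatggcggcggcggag
The absence of these letters from a window says nothing about binding elsewhere, and Hdac1 was not among the windows searched.

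The histone deacetylases were next compared. Hdac1, on chromosome 4 from 129516104 to 129542646, encodes a class I enzyme that removes acetyl groups from histones in the CoREST, NuRD and Sin3 complexes. It was at 24.3, 24.5 and 14.2 CPM in 393P_vector samples and at 36.1, 31.9 and 33.2 CPM in 393P_ZEB1 samples. Every 393P_ZEB1 sample was above the highest 393P_vector sample, and 393P_vector replicate 3 was 41.9% below the mean of the other 2. The log2 fold change of Hdac1 was 0.68 (standard error 0.21, 95% interval 0.19 to 1.18, adjusted p = 0.0376 from edgeR), beside a median of 0.03 for chromosome 4. Without 393P_vector replicate 3 the change in Hdac1 was smaller and more sharply defined (log2 fold change 0.47, adjusted p = 0.00202 from edgeR). With each 393P_ZEB1 replicate left out its log2 fold change lay between 0.64 and 0.73 and the call was lost (edgeR adjusted p of 0.0811 to 0.122), and a test against a 1.5-fold change was not passed (adjusted p = 0.502 from edgeR).

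Hdac2, on chromosome 10 from 36974544 to 37001888, is the close relative of Hdac1 and works in the same complexes. Its level was 127, 126 and 139.8 CPM in 393P_vector samples and 134, 119.7 and 132 CPM in 393P_ZEB1 samples, which overlapped. Hdac2 had a log2 fold change of -0.03 with a 95% interval from -0.26 to 0.21 (adjusted p = 0.857 from edgeR), whereas the median of chromosome 10 was -0.30. Per length, Hdac2 was the more abundant of the 2 enzymes in every sample. The ratio of Hdac1 to Hdac2 was 0.195, 0.197 and 0.103 in 393P_vector samples and 0.274, 0.271 and 0.256 in 393P_ZEB1 samples. The ratio was higher in every 393P_ZEB1 sample, by 1.69-fold on the geometric mean (two-sided exact permutation p = 0.1, the smallest that 3 samples against 3 allow). As a difference of the log2 ratio this was 0.75, and it was 0.44 without 393P_vector replicate 3. Sirt1, also on chromosome 10, from 63319005 to 63339035, encodes a deacetylase that depends on NAD. It was at 23.0, 21.5 and 29.9 CPM in 393P_vector samples and at 24.2, 20.3 and 18.9 CPM in 393P_ZEB1 samples. The groups overlapped, and the highest value was that of 393P_vector replicate 3. Sirt1 had a log2 fold change of -0.23 with a 95% interval from -0.62 to 0.16 (adjusted p = 0.309 from edgeR), close to the chromosome median of -0.30. Without 393P_vector replicate 3 the log2 fold change of Sirt1 was -0.08, and no chromosome median was computed for that fit.

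The LSD1-CoREST pair followed. Kdm1a, on chromosome 4 from 136550533 to 136602723, encodes the demethylase LSD1. It was at 126, 117 and 82.8 CPM in 393P_vector samples and at 150.2, 147 and 125 CPM in 393P_ZEB1 samples. The lowest 393P_ZEB1 sample was just below the highest 393P_vector sample. The log2 fold change of Kdm1a was 0.38 with a 95% interval from -0.02 to 0.77 (adjusted p = 0.119 from edgeR), beside the chromosome 4 median of 0.03, and it was 0.21 without 393P_vector replicate 3 (adjusted p = 0.0783 from edgeR). Rcor1, on chromosome 12 from 111039798 to 111113386, encodes CoREST, which couples LSD1 to the deacetylases. Its values were 48.1, 37.0 and 40.6 CPM in 393P_vector samples and 36.9, 40.5 and 33.7 CPM in 393P_ZEB1 samples. The groups overlapped, and the log2 fold change of Rcor1 was -0.18 with a 95% interval from -0.49 to 0.14 (adjusted p = 0.337 from edgeR), beside a chromosome median of -0.13. The ratio of Rcor1 to its relative Rcor3 was lower in every 393P_ZEB1 sample, with 2.73, 2.79 and 2.4 in 393P_vector samples and 1.93, 1.83 and 1.88 in 393P_ZEB1 samples (two-sided exact permutation p = 0.1, the smallest possible). Neither gene passed alone, and the log2 fold change of Rcor3 was 0.31 (adjusted p = 0.173 from edgeR). Rcor2, the other relative, went in the opposite direction to Rcor3 without passing (log2 fold change -0.38, adjusted p = 0.0868 from edgeR). No ratio to Rcor2 was computed, so the lower ratio applies to Rcor3 alone.

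Smarca4, on chromosome 9 from 21616169 to 21704230, encodes BRG1, 1 of the 2 alternative ATPases of the SWI/SNF remodeler. Its level was 623, 630.2 and 439 CPM in 393P_vector samples and 519, 504 and 558 CPM in 393P_ZEB1 samples. 393P_vector replicate 3 was the lowest of all 6 and replicates 1 and 2 the highest, so that the groups overlapped through 1 sample. The log2 fold change of Smarca4 was -0.10 with a 95% interval from -0.46 to 0.26 (adjusted p = 0.651 from edgeR), beside a median of -0.14 for chromosome 9. Without 393P_vector replicate 3 Smarca4 fell by 0.25 on the log2 scale (adjusted p = 0.0212 from edgeR). The other ATPase gene, Smarca2, encodes BRM and was at 16.8, 16.1 and 13.4 CPM in 393P_vector samples and at 29.6, 23.2 and 25.4 CPM in 393P_ZEB1 samples. Smarca2 rose with no overlap between the groups (log2 fold change 0.76, standard error 0.15, adjusted p = 0.00536 from edgeR), beside a median of -0.03 for chromosome 19. Smarca4 remained far above Smarca2 per length, but its excess shrank, with ratios of 35.5, 37.3 and 31.4 in 393P_vector samples and 16.7, 20.7 and 21.0 in 393P_ZEB1 samples. The ratio in 393P_ZEB1 cells was 0.56 of that in 393P_vector cells (two-sided exact permutation p = 0.1, the smallest possible).

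The coactivator was the gene with the clearest change. Ep300, on chromosome 15 from 81586214 to 81652077, encodes the acetyltransferase p300, and its promoter window is printed above. It was at 158, 139 and 146 CPM in 393P_vector samples and at 97.7, 100.6 and 99.8 CPM in 393P_ZEB1 samples. Every 393P_ZEB1 sample was below every 393P_vector sample, and the 393P_ZEB1 samples were close together. Ep300 fell by 0.57 on the log2 scale (standard error 0.10, 95% interval -0.79 to -0.35, adjusted p = 0.00256 from edgeR). With each sample left out in turn the log2 fold change stayed between -0.61 and -0.51 and passed each time, though a test against a 1.5-fold change did not pass (adjusted p = 0.842 from edgeR). Genes of chromosome 15 as a whole had a median log2 fold change of -0.33, over 574 genes tested, and Ep300 was lower than that median by a further 0.24, a distance for which no test was run.

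Crebbp, on chromosome 16, encodes the closely related acetyltransferase CBP and did not fall with Ep300. It was at 149, 130.4 and 130 CPM in 393P_vector samples and at 159, 154 and 156 CPM in 393P_ZEB1 samples, with no overlap. Its log2 fold change was 0.20 with a 95% interval from -0.03 to 0.43 (adjusted p = 0.147 from edgeR), beside a median of 0.25 for chromosome 16. In 393P_vector samples the ratio of Ep300 to Crebbp per length was 0.91, 0.912 and 0.962. In 393P_ZEB1 samples the ratio was 0.526, 0.559 and 0.548. The ratio fell outside the range of the other group in all 3 samples, and was 0.586 of that in 393P_vector cells (two-sided exact permutation p = 0.1, the smallest possible). Of the 5 ratios compared, 4 did not overlap between groups, each with the same p of 0.1 that the design cannot go below, and adjustment over the 5 could only raise it. Among single genes, 52.8% of all those tested did not overlap either. No such share was computed for ratios of other gene pairs, so the count is not a result about these genes. The chromosome medians of the genes in these ratios differ and were not removed.

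**Figure D2:**
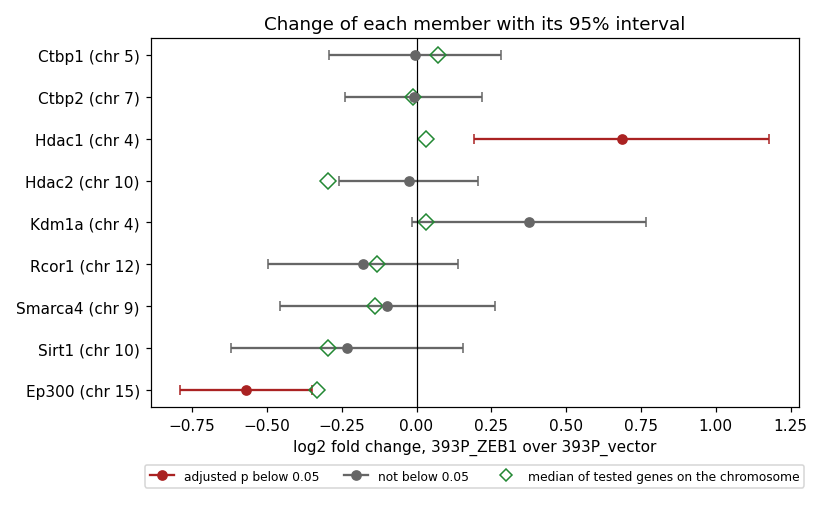
Log2 fold change of each of the 9 genes (393P_ZEB1 over 393P_vector) with its 95% interval from edgeR, in red where the adjusted p was below 0.05; open diamonds give the median of all genes tested on the same chromosome. The interval of Hdac1 lies above the diamond of chromosome 4, and the interval of Ep300, which ends at -0.35, lies just below the diamond of chromosome 15 at -0.33. The intervals are for the difference between the groups, and the distance of a gene from its diamond was not tested.

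**Figure D3:**
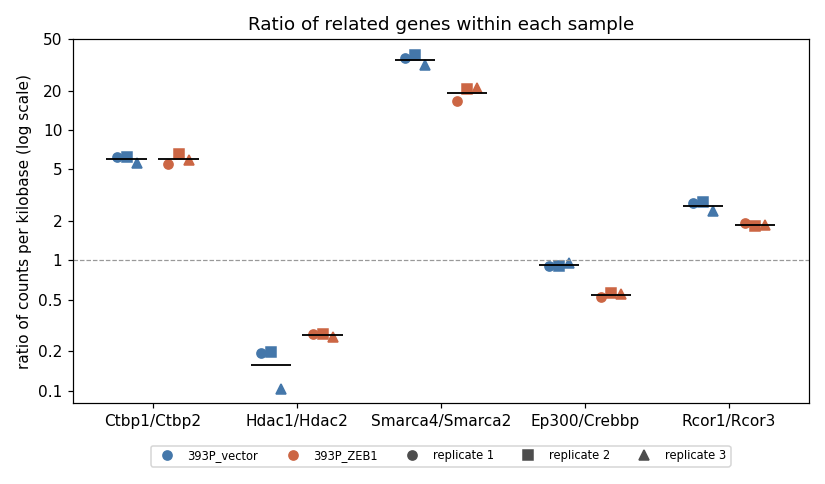
Ratio of counts per kilobase of 2 related genes in each sample on a log scale, with black bars for the geometric mean of a group and a dashed line at equal levels. The groups overlap for Ctbp1/Ctbp2 and are separate for the other 4 ratios.

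The 9 proteins work in larger complexes, and 96 further genes, which are subunits or partners of these complexes or relatives of their enzymes, were grouped into 7 lists, of which 91 genes could be tested. Across the lists 17 genes rose and 12 fell, which is 31.9% of those tested against 37.6% of all genes tested, and their median log2 fold change was -0.02. Without 393P_vector replicate 3, 23 rose and 22 fell, while 26.2% of all genes rose and 26.8% fell in that fit. The number that fell was 7 without 393P_vector replicate 1 and 6, 5 and 5 without 393P_ZEB1 replicates 1, 2 and 3. Over all genes, 2199, 1841, 1801 and 1784 fell in the same fits, against 2679 with all samples. The number of partner genes that rose was 9 without 393P_ZEB1 replicate 2 and 11 without replicate 3. Over all genes, 1889 and 1861 rose in these fits, against 2539 with all samples.

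Among partners of the LSD1-CoREST complex, 4 of 12 tested genes rose and 1 fell, with a median log2 fold change of 0.30. These calls were 41.7% of the list, near the 37.6% of all genes tested. Insm1, a zinc finger factor that recruits LSD1 in neuroendocrine cells, rose from 1.64, 1.73 and 2.58 CPM in 393P_vector samples to 26.3, 27.5 and 26.9 CPM in 393P_ZEB1 samples (log2 fold change 3.75, standard error 0.20, adjusted p = 7.24e-06 from edgeR). Every 393P_ZEB1 sample was above every 393P_vector sample. Rest, the repressor for which CoREST was named, rose from 116 ± 9.75 CPM (SD, n = 3) to 157 ± 7.53 CPM (SD, n = 3), and Zmym3, a zinc finger subunit of the complex, from 44.5 ± 5.42 CPM (SD, n = 3) to 70.0 ± 3.19 CPM (SD, n = 3). Phf21a also rose (log2 fold change 0.49, adjusted p = 0.0226 from edgeR), and Hmg20b, a DNA-binding subunit, fell (log2 fold change -0.47, adjusted p = 0.0288 from edgeR). The chromosome medians were -0.05 for Insm1 and Phf21a (chromosome 2), 0.07 for Rest (chromosome 5), -0.07 for Zmym3 (chromosome X) and -0.30 for Hmg20b (chromosome 10). The relatives of the members did not pass, with log2 fold changes of 0.30 for Kdm1b, -0.38 for Rcor2 and 0.31 for Rcor3.

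Of the 15 other deacetylases, 4 rose and 2 fell (40%, against 37.6% of all genes tested), with a median log2 fold change of 0.09. The class IIa enzymes, which act in transcription with little catalytic activity of their own, moved in different directions. Hdac9 rose from 0.265, 0.544 and 0.349 CPM in 393P_vector samples to 7.05, 7.6 and 6.37 CPM in 393P_ZEB1 samples (log2 fold change 4.18, standard error 0.27, adjusted p = 1.8e-05 from edgeR). Hdac5 rose from 26.2, 28.2 and 17 CPM to 73.2, 76.0 and 78.2 CPM (log2 fold change 1.67, standard error 0.19, adjusted p = 0.000376 from edgeR), beside a median of 0.27 for chromosome 11. Both were separate between groups in all samples. Hdac7 fell (log2 fold change -0.79, adjusted p = 0.0392 from edgeR), with 220.1, 228 and 113 CPM in 393P_vector samples against 107 to 109.6 CPM in 393P_ZEB1 samples, so that 393P_vector replicate 3 was close to the 393P_ZEB1 level. Hdac4 did not pass (log2 fold change 0.11, adjusted p = 0.621 from edgeR). Hdac3, the class I enzyme of the NCoR complex, rose from 86.6 ± 10.5 CPM (SD, n = 3) to 159 ± 4.65 CPM (SD, n = 3), a log2 fold change of 0.87 (adjusted p = 0.000734 from edgeR), and lies on chromosome 18, whose median was 0.64. Hdac11 fell and Sirt5, a mitochondrial sirtuin, rose (log2 fold changes -0.75 and 0.79). The chromosome medians were -0.13 for Hdac9 (chromosome 12), -0.33 for Hdac7 (chromosome 15), -0.36 for Hdac11 (chromosome 6) and 0.13 for Sirt5 (chromosome 13).

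The corepressor complexes that share HDAC1 and HDAC2 were examined in the same way. In NuRD, 1 of 11 genes rose and 1 fell (18.2%, against 37.6% of all genes tested), and the median log2 fold change was -0.00. Gatad2a, which encodes a scaffold subunit, fell from 294 ± 21.0 CPM (SD, n = 3) to 188 ± 12.5 CPM (SD, n = 3), and Rbbp4, a histone-binding subunit shared with other complexes, rose from 360.1 ± 26.8 CPM (SD, n = 3) to 456 ± 16.6 CPM (SD, n = 3). In the Sin3 and NCoR complexes, 2 of 13 genes rose and 2 fell (30.8%, against the same 37.6%). Ncor1, the NCoR scaffold that binds nuclear receptors, rose (log2 fold change 0.46), and the Sin3 subunits Sin3b and Sap30 were the genes that fell (log2 fold changes -0.53 and -0.59). Among CtBP partners, 1 of 7 tested genes rose and 1 fell (28.6%, against 37.6% of all genes tested). Nrip1, a nuclear receptor corepressor that binds CtBP, rose (log2 fold change 0.79, adjusted p = 0.000958 from edgeR), and Wiz, which links CtBP to the histone methyltransferases Ehmt1 and Ehmt2, fell (log2 fold change -0.59, adjusted p = 0.0101 from edgeR). Ehmt1 and Ehmt2 themselves did not pass. The median of chromosome 17, which holds Wiz, was -0.43, and that of chromosome 16, which holds Nrip1, was 0.25. For the other genes named in these complexes the chromosome medians were -0.05 for Gatad2a, Sin3b and Sap30 (chromosome 8), 0.03 for Rbbp4 (chromosome 4) and 0.27 for Ncor1 (chromosome 11).

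In SWI/SNF, 4 of 22 tested genes rose and 4 fell (36.4%, against 37.6% of all genes tested), with a median log2 fold change of -0.09. Beside Smarca2, the genes that rose were Ss18, Smarcc2 and Smarce1, and those that fell were Smarcd3, Dpf1, Dpf2 and Arid2. Smarcd3, a variant subunit that links the complex to transcription factors, fell from 10.2 ± 0.239 CPM (SD, n = 3) to 5.38 ± 0.992 CPM (SD, n = 3). Ss18 had a log2 fold change of 0.66 and lies on chromosome 18, whose median was 0.64. Arid2, at -0.39, lies on chromosome 15 with a median of -0.33. The chromosome medians were -0.30 for Smarcc2 (chromosome 10), 0.27 for Smarce1 (chromosome 11), 0.07 for Smarcd3 (chromosome 5), -0.01 for Dpf1 (chromosome 7) and -0.03 for Dpf2 (chromosome 19). Without 393P_vector replicate 3, 5 genes of the list rose and 8 fell, while 26.2% of all genes rose and 26.8% fell in that fit. Among the acetyltransferases and coactivators, 1 of 11 genes rose and 1 fell (18.2%, against 37.6% of all genes tested), with a median log2 fold change of -0.06. Ncoa1, the steroid receptor coactivator SRC-1, fell from 6.94, 5.01 and 5.95 CPM in 393P_vector samples to 1.76, 1.62 and 1.41 CPM in 393P_ZEB1 samples (log2 fold change -1.90, standard error 0.19, adjusted p = 0.000189 from edgeR). Kat6b rose (log2 fold change 0.46, adjusted p = 0.0313 from edgeR). The chromosome medians were -0.13 for Ncoa1 (chromosome 12) and -0.26 for Kat6b (chromosome 14).

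**Figure D4:**
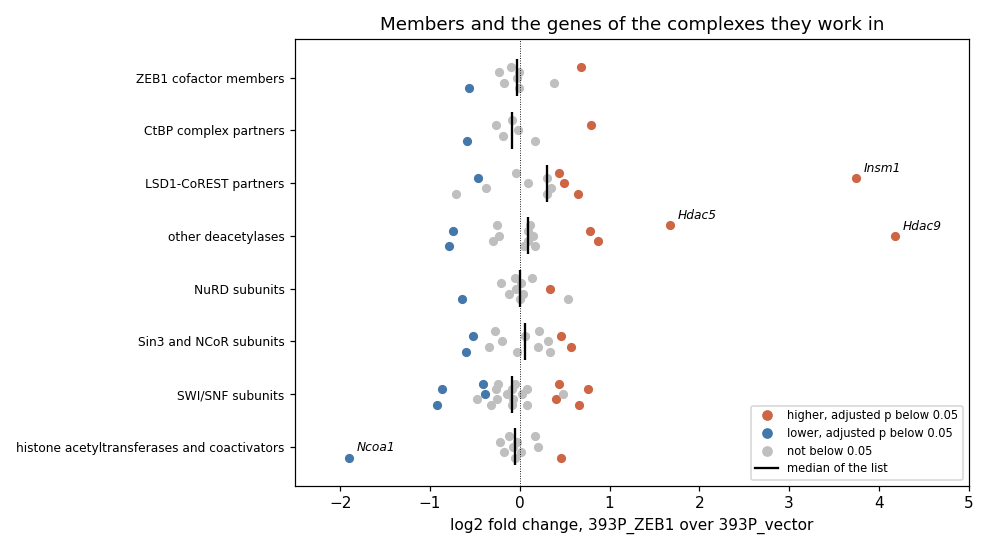
Log2 fold change (393P_ZEB1 over 393P_vector) of every tested gene among the 9 members and the 7 lists of partner genes, coloured by the edgeR call at an adjusted p of 0.05, with a black line at the median of each list and names for changes beyond 1. The medians lie between -0.09 and 0.30, and Hdac9, Insm1 and Hdac5 extend to the right while Ncoa1 extends to the left.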

How the data were processed

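RNA sequencing of total RNA on the SOLiD platform gave 6 samples, grouped by their titles. Per the file headers, the authors deposited for each RefSeq gene the raw count of reads, the exon length, the number of exons with over 10 reads and an RPKM. Coordinates match GRCm38, and neither the alignment and counting tools nor the use of strand is given in the sources used here. The deposited RPKM implied totals between 99.1% and 99.32% of the summed counts and was not used further, and RPKM values here were recomputed. Counts of close relatives may share reads, which was not tested, and no member was listed at a repeated locus. In R 4.3.3, edgeR 4.0.16 kept 13892 genes (filterByExpr, minimum count 10), normalized by TMM (factors from 0.9789 to 1.05) and compared 393P_ZEB1 with 393P_vector by a robust quasi-likelihood fit without a replicate block. No test for this comparison is stated in the paper. Adjusted p-values are Benjamini-Hochberg values over all genes tested, and the standard error was the log2 fold change divided by the square root of F. CPM used TMM-normalized library sizes. Ratios were tested by exact permutation in SciPy 1.17.1. A level of 3 counts corresponds to between 0.0379 and 0.0551 CPM.

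The members and lists were chosen with earlier results of these data known. The genes named are the 9 members, their relatives, up to 3 genes in each direction from each partner list by smallest p, check markers and the genes most like the member with the largest change. Phf21a, Sirt5, Smarce1, Arid2, Hdac4, Ehmt1 and Ehmt2 were named after their values were seen. One listed partner gene was not analysed here, another that the naming rule takes is not reported here, and 3 partner genes and 1 marker were found under older symbols. The fits were tested on simulated counts before use. Alternatives were DESeq2 1.42.0, DESeq2 size factors, limma 3.58.1 voom with sample weights, other filters, the replicate block, removal of the 10 most counted genes, a test against a 1.5-fold change and leaving out each sample.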

Additional observations from a re-analysis of the deposited data

How the results depend on the processing

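Replicate numbers are shared by the groups. Same-numbered samples had correlations of their deviations, across genes, of 0.279, -0.206 and -0.038 for replicates 1, 2 and 3. The value for replicate 1 was the largest of all pairs, but not every sample correlated best with its own number. With so few samples these correlations cannot settle whether the numbers pair the samples, and the labels do not say. With the replicate number as a block, 2180 genes were higher and 2256 lower, 1 member rose and 1 fell, and the log2 fold changes were 0.72 for Hdac1 and -0.57 for Ep300. Pairing leaves the mean difference of a log2 ratio as it is by construction, at -0.0035 for Ctbp1/Ctbp2. For the other 4 ratios the exact permutation p was 0.25 in place of 0.1, each the smallest that its test allows with these samples. With the limma voom fit, 2 members, 4100 genes and 28 partner genes were lower and 3971 genes were higher, and the cause was not tested. That fit gave Smarca4 a log2 fold change of -0.24 and turned those of Ctbp1 and Ctbp2 to 0.0448 and 0.0612. The test against a 1.5-fold change, stricter by construction, left 0 members higher or lower by edgeR, 1081 genes higher and 1118 lower, and 4 partner genes higher and 1 lower. The edgeR test against no change called 1 member in each direction. With each sample left out in turn, members higher ranged from 0 to 1 and lower from 1 to 2, genes higher from 1861 to 3700 and lower from 1784 to 3776, and partner genes higher from 9 to 23 and lower from 5 to 22. The same fits gave log2 fold changes from -0.0866 to 0.0962 for Ctbp1, from -0.0496 to 0.0401 for Ctbp2 and from -0.0531 to 0.0292 for Hdac2, and a difference of the log2 Ctbp1/Ctbp2 ratio from -0.065 to 0.054. For the other ratios these differences ran from 0.443 to 0.911 for Hdac1/Hdac2, from -0.909 to -0.732 for Smarca4/Smarca2, from -0.79 to -0.744 for Ep300/Crebbp and from -0.557 to -0.447 for Rcor1/Rcor3. Of 126 recomputed single-member changes, 110 kept their direction and call, 5 lost the call, 2 gained it and 9 changed sign, all 9 in Ctbp1, Ctbp2 and Hdac2.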

Other observations

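Hdac1 was the member with the largest log2 fold change, and its pattern over the 6 samples was compared with that of other genes. There were 10104 tested genes at a mean of at least 5 CPM, and the members among them were left out of the ranking. The genes nearest to it, by the root mean square difference of log2 CPM after centring each gene, were Plekhg2 (0.022), Amdhd2 (0.0405) and Trib3 (0.0439). Plekhg2, a guanine nucleotide exchange factor, was at 82.6, 86.8 and 49.1 CPM in 393P_vector samples and at 126, 108 and 114 CPM in 393P_ZEB1 samples. Trib3, a stress-induced pseudokinase, was at 41.3, 45.4 and 25.2 CPM and at 65.0, 59.0 and 58.2 CPM. Like Hdac1, these genes were lowest in 393P_vector replicate 3. Nearness was computed on the same samples and carries no test.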
